A study of Mus musculus with 10 samples.

Results

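Med26 siRNA was compared with a control siRNA in neural progenitor cells (NPCs) made from mouse embryonic stem cells (ESCs). The series holds 10 libraries, and 4 of them make this comparison, namely replicates 1 and 2 of the NPC control group and replicates 1 and 2 of the NPC Med26 siRNA group. Genes were kept where RPKM was at least 1 in at least 2 of the 6 NPC libraries, which left 11425 of the 24520 genes in the deposited table. RPKM is a read number scaled to transcript length in kilobases and to library size in M (mega) mapped reads, so it allows levels of different genes to be set side by side. The other 2 NPC libraries came from cells given Cbx3 siRNA. They entered the estimate of the spread and gave a second knockdown against which each change could be tested.

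All 3 NPC groups came from ESC line V6.5, kept with leukemia inhibitory factor on a feeder layer of irradiated embryonic fibroblasts. The cells spent 4 days as embryoid bodies and were then dissociated to single cells and grown as a monolayer in ITSF medium. Transfection of siRNA took place on day 5, and RNA was harvested on day 8. The control siRNA was directed against luciferase, which mouse cells do not carry. The labels do not say whether 1 siRNA or several were used per target, or what share of the cells was transfected. The labels call the replicates biological, but nothing says that they were separate differentiations, so the p-values reflect the spread between these samples, which may be technical.

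Mediator is the multi-subunit complex that carries signals from DNA-bound activators to RNA polymerase II. Its subunits form head, middle and tail modules around a central scaffold, with a dissociable kinase module, and Med26 is a subunit found in only part of the Mediator complexes. Med26 is known as a docking site for the general factor TFIID and then for elongation complexes built on Ell and Eaf proteins, among them the super elongation complex with the kinase P-TEFb. A second such complex, the little elongation complex, acts at genes for small nuclear RNAs and at replication-dependent histone genes. Cbx3, the target of the other siRNA, is HP1 gamma, a reader of methylated histone H3.

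The NPC label was checked against marker genes in the 2 control libraries. The neural progenitor transcription factor genes Sox2 (29.6 and 29.9 RPKM), Sox1 (9.22 and 8.29) and Pax6 (3.39 and 3.42) were present, as was Nes (34.9 and 33.4), which encodes the intermediate filament nestin. Pou5f1, the gene of the pluripotency factor Oct4, was listed at 484 and 497 RPKM and Nanog at 24.3 and 23.5. The neuronal genes Dcx and Neurog2 were near 0, with highest values over the 6 NPC libraries of 0.0243 and 0.0658 RPKM. Other neuronal genes were present: the 27 listed ones summed to 177.5 and 174.7 RPKM in the controls. Of the 27, 15 stayed under 1 RPKM in all 6 NPC libraries. Sox2 also belongs to the core pluripotency genes. The label therefore covers cultures whose RNA held high levels of core pluripotency genes beside neural progenitor genes. In bulk RNA of such cultures, fewer cells of a type and less RNA per cell cannot be told apart.

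Depth estimated from the steps between low RPKM values was 53.8 and 55.05 M reads in the control libraries, 45.7 and 46.9 M with Cbx3 siRNA and 54.8 and 63.8 M with Med26 siRNA. Replicates correlated across genes with r between 0.9948 and 0.9956 on the log scale. The first principal component, with 42.9% of the variance, separated the Cbx3 siRNA libraries from the Med26 siRNA libraries with the controls between them. The second, with 33.4%, separated the controls from both knockdowns.

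Med26 RNA was lower in both knockdown libraries than in every other NPC library. Med26 stood at 7.56 and 6.78 RPKM in the controls, 7.42 and 6.35 with Cbx3 siRNA, and 3.04 and 3.07 with Med26 siRNA. The Med26 siRNA libraries did not overlap with either other group, and the log2 change of RPKM + 1 was -1.01 with a standard error (SE) of 0.09 (adjusted p = 0.00111). Against Cbx3 siRNA the difference was -0.96 (adjusted p = 0.000982). Cbx3 RNA itself measured 9.37 and 9.65 RPKM in the controls and 7.87 and 7.93 after Med26 siRNA, a difference of -0.24 that did not pass (adjusted p = 0.113).

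Over all tested genes, 1802 (15.8%) passed an adjusted p of 0.05 after Med26 siRNA, 910 (7.96%) higher and 892 (7.81%) lower. These shares are the background for every count of list members given here. In the direct contrast of Med26 with Cbx3 siRNA 2329 genes (20.4%) passed, 989 (8.66%) higher and 1340 (11.7%) lower with Med26 siRNA, and for Cbx3 siRNA against control 1003 (8.78%) were higher and 722 (6.32%) lower. Both Med26 siRNA libraries lay above both controls for 3354 genes (29.4%) and below them for 3448 (30.2%), so a lack of overlap alone is common here. Most changes were small: 1234 of the 1802 had a log2 change of less than 0.5 in size, and 16 genes rose and 21 fell by 2-fold or more. The median log2 change of all tested genes was near 0 (-0.0025). The count rested on having both replicates of each arm: it was 547 without control replicate 1, 642 without control replicate 2, 462 without Med26 siRNA replicate 1 and 693 without Med26 siRNA replicate 2. When the 4 ESC libraries, which vary more between replicates, also set the spread, 15 genes passed, 3 higher and 12 lower. Among those were Med26, Lefty1, Acvr2b, Lhpp, Cbx6, Cdca7l, Rce1 and Mir6340 among the falls and Dcaf12l1, Ier3 and Syap1 among the rises. For the other genes named here the call ended in that fit.

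**Figure D1:**
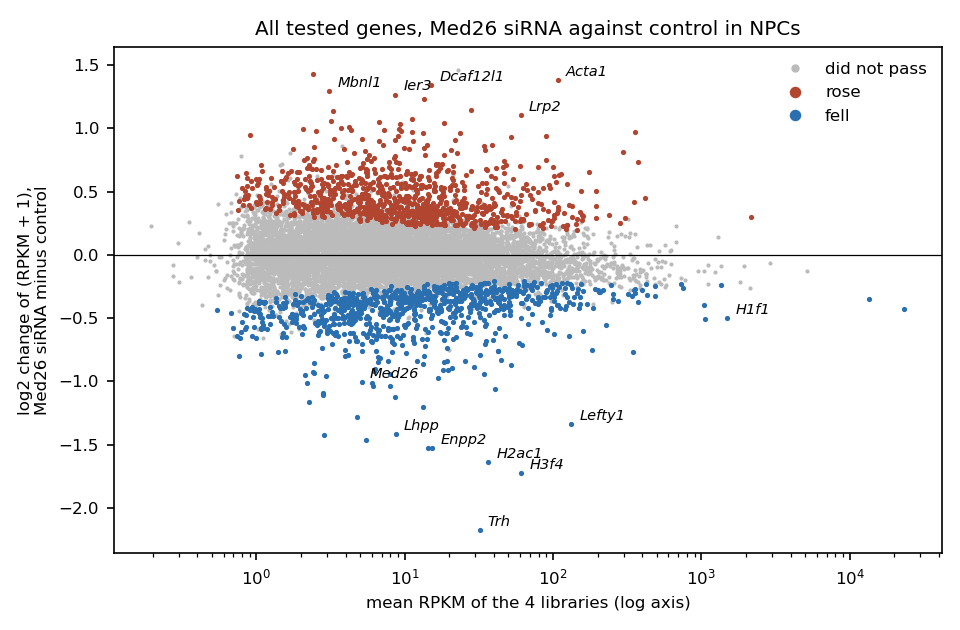
Log2 change of RPKM + 1 (Med26 siRNA minus control, vertical axis) against the mean RPKM of the 4 libraries (log axis) for the 11425 tested genes, 1 point per gene. Red points rose and blue points fell at an adjusted p under 0.05, and Trh lies lowest, at -2.18.

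The largest fitted fall was that of Trh. Trh, the precursor of thyrotropin-releasing hormone, was at 50.4 and 55.5 RPKM in the controls and 10.3 and 11.5 after Med26 siRNA (log2 change -2.18, SE 0.08, adjusted p = 5.99e-05). Trh was also low after Cbx3 siRNA, at 12.9 and 12.7 RPKM, and the difference between the knockdowns did not pass (-0.21, adjusted p = 0.0939). Enpp2, the gene of autotaxin, which makes lysophosphatidic acid, went from 22.2 and 24.1 RPKM to 7.6 and 7.15 (log2 change -1.53, adjusted p = 0.000124). Cbx3 siRNA libraries held Enpp2 at 11.5 and 11 RPKM, and the knockdowns differed by -0.55 (adjusted p = 0.00303). Both genes were thus low in all 4 knockdown libraries, with no overlap with the controls.

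For 3 further large falls the Med26 siRNA level was also well below that of Cbx3 siRNA. Lhpp, a phosphatase gene, was at 13.4 and 12.9 RPKM in the controls, 12.4 in both Cbx3 siRNA libraries, and 4.29 and 4.26 after Med26 siRNA (log2 change -1.42, adjusted p = 0.000124). Cdca7l, related to the chromatin factor gene Cdca7, was at 20.6 and 22.7 RPKM in the controls, 16.6 and 16.3 with Cbx3 siRNA, and 6.48 and 7.25 with Med26 siRNA (-1.53, adjusted p = 0.000158). It also fell after Cbx3 siRNA (-0.38, adjusted p = 0.0194), and the knockdowns differed by -1.15 (adjusted p = 0.000284). Rce1, which encodes a protease that trims prenylated proteins such as Ras, was at 19.9 and 17.7 RPKM in the controls, 24.9 and 21.6 with Cbx3 siRNA, and 7.77 and 7.45 with Med26 siRNA (-1.20, adjusted p = 0.000561). In each of the 3 genes the Med26 siRNA libraries lay below all 4 other NPC libraries. The remaining genes among the 15 largest falls included the microRNA hairpin gene Mir6340 (-1.46), Pgbd5 (-1.11) and the small nucleolar RNA genes Snora21 (-1.12) and Snord52 (-1.10). Snord52 lost its call without single libraries, with adjusted p up to 0.0889.

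Among the largest rises was that of Acta1. Acta1, skeletal muscle alpha-actin, was at 59.8 and 59 RPKM in the controls, 77.5 and 83.6 with Cbx3 siRNA, and 155 and 158 with Med26 siRNA (log2 change 1.38, SE 0.06, adjusted p = 9.56e-05). The 3 groups did not overlap for Acta1, and the knockdowns differed by 0.95 (adjusted p = 0.000207). Dcaf12l1, which encodes a predicted adaptor of a ubiquitin ligase, was at 8.17 and 8.09 RPKM in the controls, 8.51 and 7.42 with Cbx3 siRNA, and 22.1 and 22.2 with Med26 siRNA (1.34, adjusted p = 0.000225). Lrp2, the endocytic receptor megalin, went from 38.5 and 37.7 RPKM to 84.8 and 81.2 (1.10, adjusted p = 0.000158), with 47.9 and 46.3 after Cbx3 siRNA. Mbnl1, a splicing regulator gene, went from 1.51 and 1.25 RPKM to 4.93 and 4.71 (1.29, adjusted p = 0.000518). Mymx had the largest fitted rise, 1.43, from 0.633 and 1 RPKM to 5.1 and 2.91, and its Med26 siRNA replicates lay further apart than those of the other large rises. Other genes among the 15 largest rises included Pmp22 (1.14), Ltb (1.06), Misp3 (1.05) and Syap1 (1.01).

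**Figure D2:**
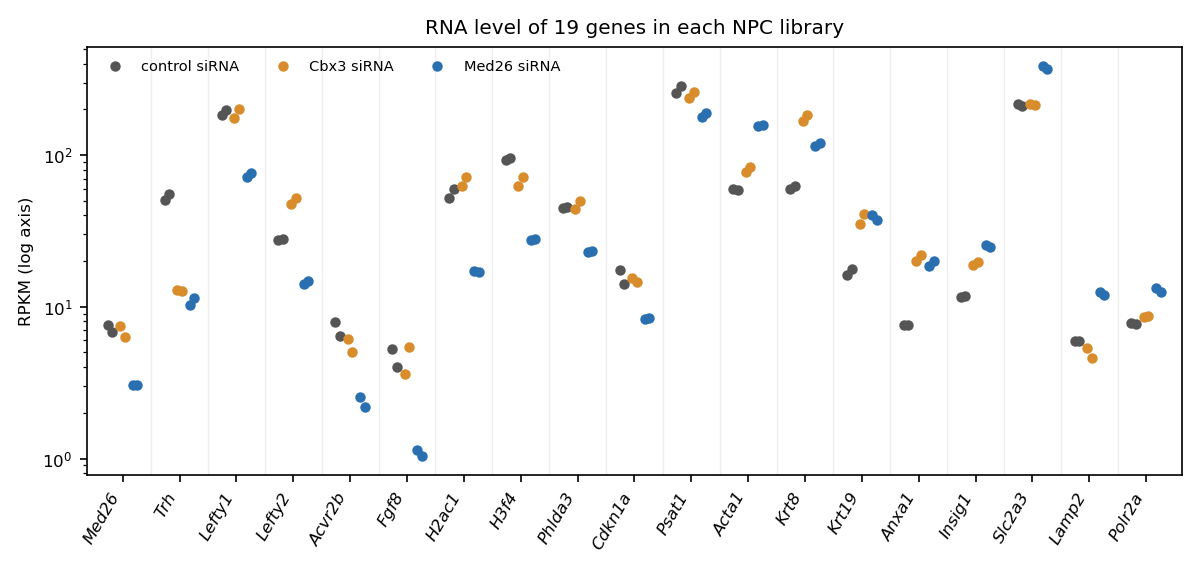
RPKM (log axis) of 19 genes in each of the 6 NPC libraries, 1 point per library. Grey is control, orange Cbx3 siRNA and blue Med26 siRNA. Trh is low in both knockdowns, whereas the Med26 siRNA points stand apart from the other 4 for Med26, Lefty1, Lefty2, Acvr2b, Fgf8, H2ac1, H3f4, Phlda3, Cdkn1a, Psat1, Acta1, Insig1, Slc2a3, Lamp2 and Polr2a.

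Within the transcription machinery, Polr2a, which encodes the largest subunit of RNA polymerase II, rose. It was at 7.84 and 7.68 RPKM in the controls, 8.5 and 8.65 with Cbx3 siRNA, and 13.3 and 12.5 with Med26 siRNA (log2 change 0.67, SE 0.07, adjusted p = 0.00167). It also exceeded the Cbx3 siRNA level (0.54, adjusted p = 0.00263). Among the 13 tested polymerase subunit genes, Polr2f was the other that passed, at -0.23, and its call was lost without single libraries (adjusted p up to 0.25).

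Of 8 tested head subunit genes of Mediator, Med11 fell from 26.5 and 24.1 RPKM to 16.4 and 17.9 (log2 change -0.53, adjusted p = 0.00473). Med22, also in the head, fell from 22 and 23.7 RPKM to 17.4 and 17.8 (-0.36, adjusted p = 0.0125), and Med28 rose from 8.36 and 8.47 to 10.6 and 11 (0.33, adjusted p = 0.0316). In the middle module 1 of 8 passed, Med7 at 0.35 (adjusted p = 0.0348). None of 8 tail genes passed. Of 5 kinase module genes, Ccnc, the gene of cyclin C, rose from 13.7 and 14.8 RPKM to 19.3 and 20.6 (0.46, adjusted p = 0.00719). Against Cbx3 siRNA, Med11, Med22, Med28, Med7 and Ccnc all passed in the same direction. Med22, Med28 and Med7 lost their call without single libraries, with adjusted p up to 0.0836, 0.132 and 0.207.

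The elongation complexes that Med26 is known to bind were read next. In the super elongation complex and P-TEFb list, 3 of 15 rose (20.0%, beside 15.8% of all genes called in either direction) and none fell: Hexim1 (0.32), an inhibitor of P-TEFb, Ccnt1 (0.30), the cyclin of P-TEFb, and Aff4 (0.30), the scaffold. The list's median was 0.08, and none of the 3 passed when control replicate 1 or 2, or Med26 siRNA replicate 1 or 2, was left out. In the list of Integrator complex and small nuclear RNA genes, 1 of 21 rose and none fell (4.8%, beside 15.8%), with a median of 0.025. The small nuclear RNA genes tested there, Rnu11 and Rnu12, did not pass. In the list of pausing and elongation factors, 1 of 22 rose and 2 fell. Tcea3, a tissue-restricted form of the elongation factor TFIIS, went from 21.8 and 23.3 RPKM to 11 in both Med26 siRNA libraries (-0.97, adjusted p = 0.000518). Ssrp1, a subunit of the histone chaperone FACT, went from 171 and 176 RPKM to 127 and 139 (-0.39, adjusted p = 0.0114), a call lost without single libraries (adjusted p up to 0.0836).

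Among the general transcription factors and TFIID, 5 of 27 rose and 1 fell. Gtf2h1, a TFIIH subunit gene, rose from 24.4 and 26.3 RPKM to 36.2 and 38.6 (0.54, adjusted p = 0.00343), and it was as high after Cbx3 siRNA (36.5 and 38.6). Tbp, the TATA-binding protein gene, was at 11.4 and 11.8 RPKM in the controls and 13 and 12.2 after Med26 siRNA, a difference of 0.10 with a 95% interval of -0.06 to 0.26 (adjusted p = 0.353). The count that rose was 2 without Med26 siRNA replicate 1 and 1 without control replicate 1, control replicate 2 or Med26 siRNA replicate 2, and it was 2 without either Cbx3 siRNA library.

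Histone genes, the DNA-packing protein genes that are transcribed in S phase and mostly end in a stem-loop without a poly(A) tail, fell in 14 of 70 listed cases, and 2 further ones were among the 3 largest falls. H3f4, which encodes a histone H3 form, was at 93.2 and 95 RPKM in the controls, 62.9 and 71.7 with Cbx3 siRNA, and 27.4 and 28.1 with Med26 siRNA (log2 change -1.73, SE 0.07, adjusted p = 9.56e-05). H2ac1, which encodes a histone H2A form, was at 52.1 and 59.6 RPKM in the controls, 62.3 and 71.3 with Cbx3 siRNA, and 17.3 and 17.1 with Med26 siRNA (-1.64, SE 0.09, adjusted p = 0.000158). For both genes the Med26 siRNA libraries lay far below the other 4, and against Cbx3 siRNA the differences were -1.25 (adjusted p = 0.000155) and -1.90 (adjusted p = 8e-05). Neither gene belongs to the histone list used here, which held 71 other genes, 70 of them tested.

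On that list 14 fell and 2 rose, against 7.81% and 7.96% of all tested genes, and the median change was -0.162, with 60 members below 0. The linker histone gene H1f1, at 1684 and 1830 RPKM in the controls, went to 1194 and 1289 (-0.50, adjusted p = 0.00917). H1f5, another linker histone gene, went from 1198 and 1292 RPKM to 828 and 928 (-0.51, adjusted p = 0.0093). H2bc1, a histone H2B gene, went from 71.5 and 70.9 RPKM to 47.2 and 53.3 (-0.50, adjusted p = 0.00549). By family, 6 of 14 tested H3 genes, 3 of 18 H2A genes, 2 of 16 H2B genes, 2 of 7 H1 genes and 1 of 13 H4 genes fell. The family medians were -0.251 for H3, -0.185 for H4, -0.149 for H2B, -0.107 for H2A and -0.089 for H1.

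The 2 that rose were both genes of replication-independent histones. H1f0, the linker histone of resting cells, went from 16.8 and 16.5 RPKM to 26.7 and 24.5 (0.59, adjusted p = 0.00251), and H3f3b, a histone H3.3 gene, rose by 0.24. After Cbx3 siRNA 1 histone gene rose and 1 fell, with a median of 0.017, and in the direct contrast 22 of the 70 were lower with Med26 siRNA and 4 higher, against 11.7% lower and 8.66% higher of all tested genes. Genes for histone supply and the Cajal body, such as those that process histone transcripts, gave no call among 9 tested. Many histone genes have near-identical copies, among which the authors' counting could split reads, so values of single copies are uncertain.

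The count of histone genes that fell was unstable. It was 4 without control replicate 1, 3 without control replicate 2, 1 without Med26 siRNA replicate 1 and 7 without Med26 siRNA replicate 2. H1f1 and H1f5 lost their calls without single libraries (adjusted p up to 0.0738 and 0.0719), whereas H2ac1, H3f4, H2bc1 and H1f0 passed in all 6 fits that left out a library. Histone transcripts are short, with a median length of 616 bases against 2777 for all tested genes, and rich in GC (57.5% against 50.7%). The change after Med26 siRNA varied with transcript length in all genes. Its median was -0.122 for the 285 genes under 500 bases, -0.033 for the 2571 genes of 1000 to 2000 bases, and 0.077 for the 1161 genes of 6000 bases or more. After Cbx3 siRNA the same medians were 0.015, 0.007 and 0.008. The difference of replicate 2 from replicate 1 ran the other way in all 3 groups, from between 0.038 and 0.076 in the shortest class to between -0.075 and -0.053 in the longest. The Med26 siRNA change varied with GC content too. Its median was 0.081 for the 470 genes under 40% GC and -0.092 for the 657 genes of 60% or more. After Cbx3 siRNA the medians of these GC classes were 0.002 and -0.019. With a trend on length and GC content removed, 9 histone genes were lower and 4 higher, and the median moved to -0.037. H2ac1 kept its fall there (adjusted p = 0.000128), and H3f4 had no transcript length to use. The part of length and GC in the result was not tested further.

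**Figure D3:**
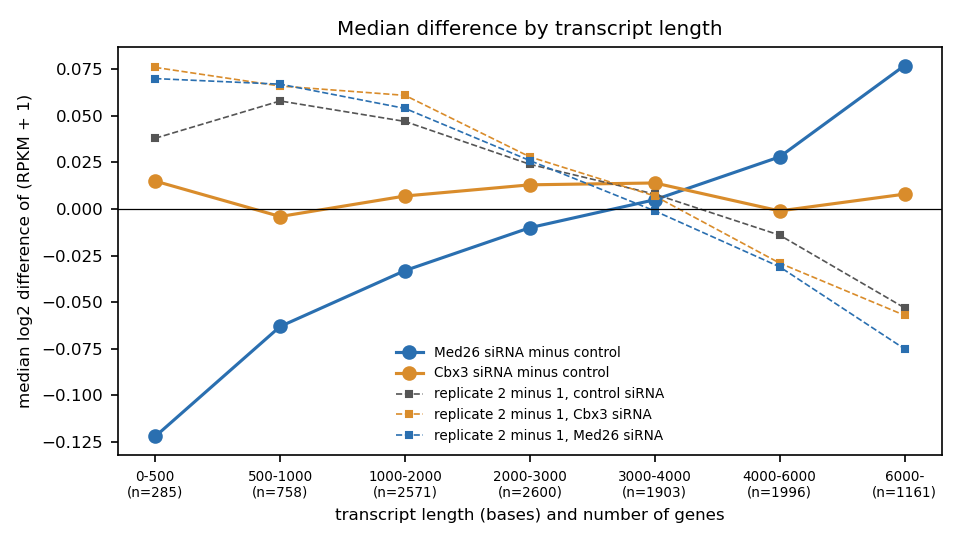
Median log2 difference of RPKM + 1 (vertical axis) of genes grouped by transcript length in bases (horizontal axis, number of genes in brackets). Solid lines are Med26 siRNA minus control (blue) and Cbx3 siRNA minus control (orange), and dashed lines are replicate 2 minus replicate 1 in each group. The Med26 siRNA line runs from -0.122 in the shortest class to 0.077 in the longest.

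The promoter windows of 3 histone genes with low RNA after Med26 siRNA are given next. Each window runs from 250 bases before the RefSeq start of transcription to 50 after it, in build GRCm38.p6, matched by gene symbol. Capitals mark 2 motifs that were searched on both strands. The first is TATAAA, the core of the TATA box, which reads TTTATA when it lies on the other strand. The second is the CCAAT box, which then reads ATTGG. H2ac1 lies at chr13:23934187-23934486 on the plus strand, H3f4 at chr11:58961461-58961760 on the plus strand and H1f1 at chr13:23763418-23763717 on the plus strand.
H2ac1: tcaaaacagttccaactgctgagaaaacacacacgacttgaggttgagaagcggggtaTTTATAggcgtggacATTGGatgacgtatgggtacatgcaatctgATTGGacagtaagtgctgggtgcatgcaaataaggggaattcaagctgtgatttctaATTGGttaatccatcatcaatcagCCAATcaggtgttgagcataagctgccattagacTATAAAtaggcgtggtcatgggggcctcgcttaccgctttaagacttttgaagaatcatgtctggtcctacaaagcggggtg
H3f4: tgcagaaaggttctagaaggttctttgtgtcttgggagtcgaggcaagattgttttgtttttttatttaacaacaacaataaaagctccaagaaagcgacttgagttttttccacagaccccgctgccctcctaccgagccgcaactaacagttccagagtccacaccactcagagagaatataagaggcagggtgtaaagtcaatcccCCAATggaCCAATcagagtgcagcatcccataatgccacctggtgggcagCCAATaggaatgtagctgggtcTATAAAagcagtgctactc
H1f1: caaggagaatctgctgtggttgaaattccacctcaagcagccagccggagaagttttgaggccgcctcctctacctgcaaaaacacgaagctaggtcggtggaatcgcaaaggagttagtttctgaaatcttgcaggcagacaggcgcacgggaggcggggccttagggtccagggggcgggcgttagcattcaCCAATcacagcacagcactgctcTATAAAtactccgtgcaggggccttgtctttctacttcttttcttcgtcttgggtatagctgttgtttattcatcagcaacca
In these windows TATAAA begins at -192 (on the other strand) and -32 in H2ac1 and at -33 in H1f1, counted from the start of transcription. In H3f4 the match begins at 31, inside the annotated transcript. CCAAT boxes begin at -66 in H2ac1 and -56 in H1f1, with 3 further matches in H2ac1, and at -41, -33 and 9 in H3f4. No match overlaps another in the 3 sequences. The H2bc1 gene is read from the other strand, and its window shares 220 bases with that of H2ac1, so the pair has 1 divergent promoter. Both genes of the pair fell, by -1.64 for H2ac1 and -0.50 for H2bc1.

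Windows were at hand for 8974 of the 11425 tested genes (78.5%), 11465 in all. TATAAA was in 51.5% of the 66 windows of listed histone genes, against 6.8% of all windows, 8.8% of those of genes that fell and 9.2% of those of genes that rose. CCAAT was in 81.8% of histone windows, against 38.4% of all, 37.5% of those of genes that fell and 37.4% of those of genes that rose. GGGCGG, the core of the GC box, was in 43.9% of histone windows and 65.1% of all. For each motif the shares among genes that rose and genes that fell were close to each other.

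Ribosomal protein genes fell in 17 of 84 cases and rose in none. The median was -0.178 and 81 were below 0. Rps29 went from 44.9 and 53 RPKM to 35.8 and 35.9 (-0.43, adjusted p = 0.015) and Rps14 from 408 and 430 to 314 and 335 (-0.37, adjusted p = 0.0113). The median after Cbx3 siRNA was -0.028. The count of falls was 2 without control replicate 1, 1 without control replicate 2, 0 without Med26 siRNA replicate 1 and 5 without Med26 siRNA replicate 2, and Rps29 and Rps14 each lost their call in some of these fits (adjusted p up to 0.0828 and 0.0874). These transcripts are also short, with a median of 830 bases, and with the trend on length and GC removed 12 fell and the median was -0.117. Ribosomal protein genes have many processed pseudogene copies that can take reads. In the list of translation and ribosome biogenesis genes, 4 of 33 fell, among them Eef2, the elongation factor that moves the ribosome along, from 1191 and 1176 RPKM to 881 and 918 (-0.40, adjusted p = 0.00702, up to 0.0686 without single libraries). The translation falls numbered 1 without control replicate 1, 0 without control replicate 2 or Med26 siRNA replicate 1 and 3 without Med26 siRNA replicate 2.

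Nodal signaling genes held some of the largest falls. Nodal is a secreted factor of the TGF-beta family that acts through activin receptors in pluripotent and early embryonic cells, and the secreted inhibitors Lefty1 and Lefty2 are among its direct targets. Lefty1 was at 182 and 197 RPKM in the controls, 176 and 201 with Cbx3 siRNA, and 72.2 and 76.6 with Med26 siRNA (log2 change -1.34, SE 0.08, adjusted p = 0.000238). Lefty2 was at 27.4 and 27.8 RPKM in the controls, 47.9 and 52.5 with Cbx3 siRNA, and 14.1 and 14.7 with Med26 siRNA (-0.89, adjusted p = 0.000561). For Lefty2 the 2 knockdowns lay on opposite sides of the controls and differed by -1.73 (adjusted p = 4.29e-05).

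The ligand gene and a receptor gene also fell. Nodal itself went from 43 and 41.4 RPKM to 31.4 and 33.6 (-0.37, adjusted p = 0.0093). Acvr2b, an activin receptor gene, went from 7.98 and 6.41 RPKM to 2.55 and 2.18 (-1.28, SE 0.13, adjusted p = 0.00138), with 6.15 and 5.06 after Cbx3 siRNA. Fst, the gene of the activin-binding protein follistatin, went from 5.25 and 5.83 RPKM to 2.87 and 2.69 (-0.79, adjusted p = 0.00215). Each of the 5 genes was also lower than with Cbx3 siRNA, with differences from -0.60 for Nodal to -1.73 for Lefty2.

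On the list of Nodal, TGF-beta and BMP genes as a whole, 5 of 24 rose and 5 fell. The 5 that rose belong to the BMP and TGF-beta side. Id2, Id1 and Id3 encode inhibitors of bHLH factors that BMP signaling induces, and Id2 went from 26.9 and 27.3 RPKM to 50.5 and 50.4 (0.87, adjusted p = 0.000561). The falls numbered 4 without control replicate 1 or Med26 siRNA replicate 1 and 5 without the others, whereas the rises numbered 3 without control replicate 1 or 2 or Med26 siRNA replicate 1 or 2.

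Genes of the primitive streak, where mesoderm and endoderm form, fell in 3 of the 5 cases that could be tested. The list held 20 genes, and 15 of them did not reach the level needed for testing. Fgf8, a secreted growth factor, was at 5.27 and 4 RPKM in the controls, 3.62 and 5.39 with Cbx3 siRNA, and 1.14 and 1.04 with Med26 siRNA (-1.42, SE 0.17, adjusted p = 0.0026). T, the gene of the mesoderm factor Brachyury, was at 2.21 in both controls, 2.76 and 3.62 with Cbx3 siRNA, and 0.99 and 0.805 with Med26 siRNA (-0.76, adjusted p = 0.00729). Wnt3, the ligand that starts streak formation, was at 5.39 and 5.43 RPKM in the controls, 7.9 and 7.03 with Cbx3 siRNA, and 3.92 and 3.28 with Med26 siRNA (-0.48, adjusted p = 0.017, up to 0.0859 without single libraries). All 3 were lower after Med26 than after Cbx3 siRNA, by -1.38, -1.14 and -0.88. Wnt8a, a further Wnt ligand, is not on the streak list but on that of primed epiblast genes. Of the 16 tested there, 4 rose and 4 fell, with a median of -0.003. Wnt8a was at 3.41 and 3.57 RPKM in the controls, 5.14 and 6.74 with Cbx3 siRNA, and 1.25 and 0.785 with Med26 siRNA (-1.16, adjusted p = 0.00315). The summed level of the 20 streak genes was 20.5 and 18.5 RPKM in the controls, 24.6 and 25.8 with Cbx3 siRNA, and 13.5 and 13.1 with Med26 siRNA. The fall in this sum after Med26 siRNA lay in Fgf8, T and Wnt3, and the remaining members together showed none.

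FGF and ERK feedback genes moved both ways. Of 17, 4 rose and 2 fell: Etv4, an ETS factor that ERK induces, went from 21.9 and 21.3 RPKM to 13 and 14.4 (-0.62, adjusted p = 0.00251), besides Fgf8. Spred1, a feedback inhibitor, went from 15.1 and 14.6 RPKM to 24.6 and 23.9 (0.67, adjusted p = 0.0011), and the ligands Fgf5 (0.52) and Fgf4 (0.45) and the ERK phosphatase Dusp6 (0.44) rose. In the Notch list 5 of 18 fell and 2 rose. The ligand genes Jag1 (-0.54) and Dll1 (-0.47) and the factor gene Hes6 (-0.62) fell, and they were low after Cbx3 siRNA as well (-0.48, -0.71 and -0.79). The Notch falls numbered 2 without control replicate 1, 3 without control replicate 2, 2 without Med26 siRNA replicate 1 and 3 without Med26 siRNA replicate 2, and Jag1 and Hes6 kept their calls throughout while Dll1 did not.

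The neural progenitor genes Sox2, Pax6 and Sox1 were higher after Med26 siRNA than after Cbx3 siRNA, with the controls between. Sox2 is on the core pluripotency list as well, so its level is not particular to neural progenitors. Sox2 was at 29.6 and 29.9 RPKM in the controls, 19.1 and 20.9 with Cbx3 siRNA, and 36.7 and 38.5 with Med26 siRNA (0.33, adjusted p = 0.0187, up to 0.0975 without single libraries). Pax6 was at 3.39 and 3.42 RPKM, 1.35 and 1.12, and 4.33 and 4.53 in the same order. Its difference from control, 0.30 with a 95% interval of 0.09 to 0.51, did not pass (adjusted p = 0.0602 by limma), whereas the knockdowns differed by 1.28 (adjusted p = 0.000286). Sox1 was at 9.22 and 8.29 RPKM in the controls, 5.23 and 4.71 with Cbx3 siRNA, and 11.5 and 10.6 with Med26 siRNA (0.30, adjusted p = 0.0535; between knockdowns 1.01, adjusted p = 0.000619). For Sox2, Pax6 and Sox1 the order of the groups was Cbx3 siRNA, control, Med26 siRNA, with no overlap.

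On the neural progenitor list 3 of 19 rose and 1 fell after Med26 siRNA, with a median of 0.147. After Cbx3 siRNA 2 rose and 5 fell, with a median of -0.298, and in the direct contrast 8 were higher with Med26 siRNA and 1 lower, against 8.66% and 11.7% of all genes. None of the 3 rises, which included Sox2 and Vim, was called without control replicate 1 or 2 or Med26 siRNA replicate 1 or 2. Nes, at 38.8 and 40.4 RPKM against 34.9 and 33.4, gave 0.21 (adjusted p = 0.0621), and Tubb3, an early neuronal tubulin gene, at 44.2 and 45.6 against 46.3 and 48.2, gave -0.07 with a 95% interval of -0.25 to 0.11. Among neuronal genes that the repressor REST controls, Nefl rose (0.27) and Nefh fell (-0.40) of 17 tested. Neither passed without control replicate 1 or 2 or Med26 siRNA replicate 1 or 2 (adjusted p up to 0.104 for Nefl and 0.094 for Nefh). Rest itself was at 71.3 and 72.4 RPKM in the controls and 79.8 and 83.2 after Med26 siRNA (0.18, adjusted p = 0.0673). Rcor1, which encodes the REST corepressor CoREST, went from 5.85 and 5.07 RPKM to 9.27 and 8.59 (0.62, adjusted p = 0.00554) and was at 3.83 and 3.59 after Cbx3 siRNA.

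Of 13 core pluripotency genes, 2 rose and 3 fell, and 1 of the 2 was Sox2, which is also on the neural progenitor list. Without control replicate 1 or 2 or Med26 siRNA replicate 1 or 2, 0 rose, and the falls numbered 0, 1, 1 and 0 in that order. Pou5f1 was at 467 and 495 RPKM after Med26 siRNA against 484 and 497 in the controls, a difference of -0.03 with a 95% interval of -0.18 to 0.12, and 380 and 405 with Cbx3 siRNA. Nanog fell from 24.3 and 23.5 RPKM to 18.1 and 18.6 (-0.37, adjusted p = 0.0138, up to 0.0899 without single libraries). Of 15 naive pluripotency genes, 5 rose and none fell. Esrrb, an orphan receptor of the naive network, went from 1.18 and 0.913 RPKM to 2.11 and 2.14 (0.61, adjusted p = 0.01). Nr0b1, a nuclear receptor gene, went from 1.29 and 1.6 RPKM to 3.61 and 3.21 (0.85, adjusted p = 0.00273). Klf2, a Kruppel-like factor gene, went from 1.98 and 1.45 RPKM to 3.81 and 2.91 (0.68, adjusted p = 0.038). All 3 were low in level, and Klf4, a further naive factor, stayed at or under 0.929 RPKM. The 20 listed naive genes summed to 235.6 and 234.3 RPKM in the controls, 245.7 and 242.4 with Cbx3 siRNA, and 235.1 and 234.4 with Med26 siRNA. The summed level thus showed no rise after Med26 siRNA. The rises numbered 3 without control replicate 1, 2 without control replicate 2, 2 without Med26 siRNA replicate 1 and 3 without Med26 siRNA replicate 2, and Esrrb and Klf2 were among those lost (adjusted p up to 0.0618 and 0.203).

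Polycomb genes, which encode the repressive complexes PRC1 and PRC2, were called in 8 of 20 cases, 5 lower and 3 higher. Cbx6, a reader subunit of PRC1, went from 8.93 and 8.24 RPKM to 3.76 and 3.56 (-1.04, adjusted p = 0.000529), with 10.6 in both Cbx3 siRNA libraries. Ezh1, a methyltransferase of PRC2, went from 3.58 and 3.45 RPKM to 1.32 and 1.41 (-0.93, adjusted p = 0.000963), and Ring1, a ubiquitin ligase of PRC1, from 4.52 and 4.53 to 2.5 and 2.57 (-0.64, adjusted p = 0.00303). Jarid2, a cofactor of PRC2, went from 27.6 and 27.4 RPKM to 43.2 and 45.9 (0.67, adjusted p = 0.000999). Each of the 4 differed in the same direction from Cbx3 siRNA. Without control replicate 1, control replicate 2, Med26 siRNA replicate 1 or Med26 siRNA replicate 2, the falls numbered 3, 4, 3 and 4 and the rises 1, 2, 1 and 1.

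Targets of the stress-responsive factor p53 fell in 13 of 23 cases and rose in none, with a median of -0.311 and 19 below 0. Phlda3, an inhibitor of the kinase Akt, was at 45.1 and 45.4 RPKM in the controls, 44.4 and 50 with Cbx3 siRNA, and 22.9 and 23.3 with Med26 siRNA (log2 change -0.94, SE 0.07, adjusted p = 0.000561). Cdkn1a, the cell cycle inhibitor p21, was at 17.5 and 14.1 RPKM in the controls, 15.5 and 14.5 with Cbx3 siRNA, and 8.29 and 8.43 with Med26 siRNA (-0.84, SE 0.10, adjusted p = 0.00272). Both were lower than with Cbx3 siRNA, by -0.99 and -0.77. The apoptosis genes Bax (-0.43), Bbc3 (-0.46) and Pmaip1 (-0.37), and Mdm2 (-0.30), whose product degrades p53, also fell. Bbc3 and Pmaip1 lost their calls without single libraries (adjusted p up to 0.119 and 0.111).

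Psrc1, a spindle protein gene, went from 58.1 and 58.9 RPKM to 35.6 and 38.5 (-0.65, adjusted p = 0.00197), and it was as low after Cbx3 siRNA at 38 and 41.6. After Cbx3 siRNA 7 of the 23 fell and 3 rose, with a median of -0.175, and in the direct contrast 8 were lower with Med26 siRNA and 1 higher. The p53 target count was 6 without control replicate 1, control replicate 2 or Med26 siRNA replicate 1 and 5 without Med26 siRNA replicate 2, and Phlda3, Cdkn1a, Psrc1 and Bax passed in all 6 fits that left out a library. With the trend on length and GC removed 16 fell. In the cell cycle lists, Plk1, a mitotic kinase gene, fell (-0.39) with Birc5 among 24 G2 and M genes, and Ccne2, cyclin E2, rose (0.55) with 3 others among 28 G1 and S genes. The calls of Plk1 and Birc5 were lost without single libraries (adjusted p up to 0.0752 and 0.216). Of the 4 G1 and S rises 1 was left without control replicate 1 or 2 or Med26 siRNA replicate 1 or 2, and Ccne2 passed in each of these fits.

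Genes of the integrated stress response and of serine synthesis, targets of the factor Atf4 that supply amino acids and their tRNA charging, fell in 17 of 34 cases and rose in none, with a median of -0.293. Psat1, an enzyme of serine synthesis, was at 257 and 286 RPKM in the controls, 237 and 260 with Cbx3 siRNA, and 179 and 189 with Med26 siRNA (-0.55, adjusted p = 0.0047). Gpt2, alanine aminotransferase, went from 40 and 40.6 RPKM to 27 and 28.8 (-0.52, adjusted p = 0.00261), with 32.1 and 31.9 after Cbx3 siRNA. Nupr1, a stress-induced chromatin protein gene, was at 5.67 and 5.49 RPKM in the controls, 13.4 and 11.6 with Cbx3 siRNA, and 3.26 and 3.96 with Med26 siRNA (-0.52, adjusted p = 0.017; between knockdowns -1.55, adjusted p = 0.000255). Nupr1 lay on opposite sides of the controls in the 2 knockdowns.

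Other members that fell were Chac1 (-0.46), Psph (-0.42), Trib3 (-0.39), Shmt2 (-0.38), Mthfd2 (-0.36), Phgdh (-0.32) and Asns (-0.29). After Cbx3 siRNA 11 of the 34 fell and 2 rose, with a median of -0.146. In the direct contrast 6 were lower with Med26 siRNA and 2 higher, against 11.7% and 8.66% of all genes. The Med26 count was 4 without control replicate 1 or 2, 2 without Med26 siRNA replicate 1 and 5 without Med26 siRNA replicate 2. Psat1 and Gpt2 kept their calls, whereas Nupr1 and Chac1 did not (adjusted p up to 0.104 and 0.102). Under quantile normalization 17 fell and 2 rose, with a median of -0.205, and with the trend on length and GC removed 18 fell and 4 rose, with a median of -0.276.

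**Figure D4:**
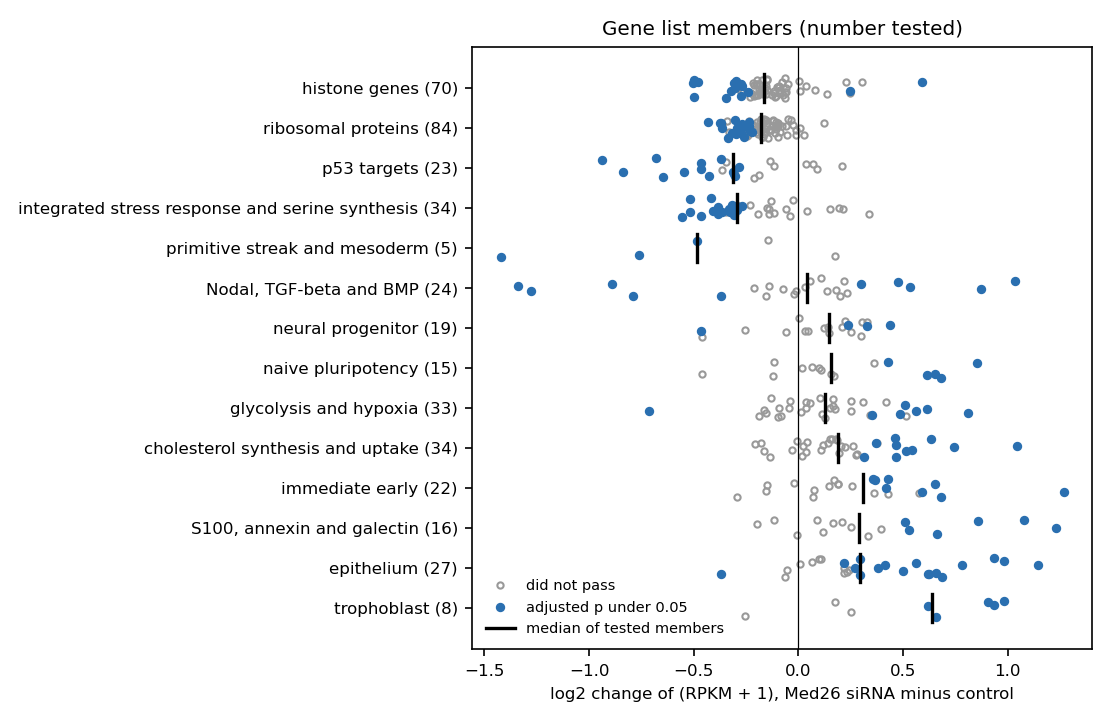
Log2 change of RPKM + 1 after Med26 siRNA (horizontal axis) of the tested members of 14 gene lists, 1 point per gene. Filled points passed an adjusted p of 0.05, open points did not, and the bar is the median of the tested members. Medians run from -0.482 for primitive streak genes to 0.638 for the 8 trophoblast genes, beside -0.0025 for all tested genes.

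Epithelial genes rose in 16 of 27 cases and fell in 1, with a median of 0.295. Krt19, a keratin of simple epithelia, was at 16.3 and 17.8 RPKM in the controls, 35.2 and 40.7 with Cbx3 siRNA, and 40.5 and 37.4 with Med26 siRNA (1.15, SE 0.09, adjusted p = 0.000561). Krt8 was at 59.4 and 62.6 RPKM in the controls, 168 and 183 with Cbx3 siRNA, and 114 and 121 with Med26 siRNA (0.94, adjusted p = 0.000518). Krt18, which pairs with Krt8 in filaments, was at 132 and 141, 303 and 326, and 210 and 221 RPKM in the same order (0.66, adjusted p = 0.00161). For Krt8 and Krt18 the Med26 siRNA libraries lay between the controls and Cbx3 siRNA, with differences from Cbx3 siRNA of -0.57 (adjusted p = 0.00191) and -0.54 (adjusted p = 0.00235). Krt8 and Krt18 have processed pseudogenes that can share reads with them.

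The list also holds genes of cell junctions and adhesion. Cdh1, E-cadherin, was at 181 and 167 RPKM in the controls, 163 and 147 with Cbx3 siRNA, and 214 in both Med26 siRNA libraries (0.29, adjusted p = 0.0323; between knockdowns 0.46, adjusted p = 0.00508). The tight junction genes Cldn4 (0.50), Cldn6 (0.38) and Cldn7 (0.27) and the desmosome genes Dsp (0.56), Jup (0.42) and Pkp2 (0.22) rose. The tight junction gene Cldn3 fell (-0.37), and Ocln (-0.06) and the adhesion molecule gene Epcam (0.07) did not pass. In the direct contrast 5 of the 27 were higher with Med26 siRNA and 7 lower.

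Of the 30 epithelial genes listed, the summed level was 1063 RPKM in each control, 1516 and 1558 with Cbx3 siRNA, and 1393 and 1434 with Med26 siRNA. The basal epithelial factor Trp63 stayed at or under 0.0433 RPKM. The count of rises was 11 without control replicate 1, 10 without control replicate 2, 9 without Med26 siRNA replicate 1 and 10 without Med26 siRNA replicate 2.

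Markers of other cell types were read in the same libraries. Of 8 tested trophoblast genes 5 rose, but 3 of these, Krt7, Krt8 and Krt18, are also on the epithelial list, and the other 2 are the imprinted genes Igf2 (0.98) and H19 (0.91). The 5 rises were called in each fit that left out 1 library. The other 3 tested genes, Eomes (0.17), Tfap2c (0.25) and Ascl2 (-0.26), did not pass. Of the 8 that did not reach the level needed for testing, Gata2 was highest, at up to 1.65 RPKM in a Cbx3 siRNA library. Gata3 reached 1.08 RPKM, Cdx2 0.816 and Elf5 0.0201 over the NPC libraries, and Tpbpa was listed at 0. The 16 trophoblast genes summed to 210.0 and 220.0 RPKM in the controls, 510 and 546 with Cbx3 siRNA, and 355 and 372 with Med26 siRNA. The keratin genes Krt8 and Krt18 made up most of each sum and most of its rise, so the sum is not a level of trophoblast genes at large. The 27 fibroblast genes, which mark the feeder layer, summed to 224 and 214 RPKM in the controls. Their sum was 305 and 282 RPKM with Cbx3 siRNA and 292 and 274 with Med26 siRNA. After Cbx3 siRNA 8 of 18 tested were higher and 1 lower, and after Med26 siRNA 4 were higher and 1 lower. Those higher after Med26 siRNA were Thbs1 (0.93), Fstl1 (0.45), Ccn1 (0.43) and Timp3 (0.41), and Fbln2 was lower (-0.41). Without control replicate 1 or 2 or Med26 siRNA replicate 1 or 2, 2 were higher and 0 lower, and Thbs1 and Fstl1 passed in each. Among the 9 fibroblast genes not tested, Col3a1, Dcn, Postn and Lum reached 0.936, 0.174, 0.109 and 0.042 RPKM. Muscle and contractile genes summed to 1076 and 1099 RPKM in the controls, 1251 and 1300 with Cbx3 siRNA, and 1451 and 1567 with Med26 siRNA. After Cbx3 siRNA 7 of 16 tested were higher and 1 lower, and after Med26 siRNA 5 were higher and 2 lower. The rises numbered 2 without control replicate 1, 3 without control replicate 2 or Med26 siRNA replicate 1 and 4 without Med26 siRNA replicate 2, and the falls 1 without Med26 siRNA replicate 2 or either Cbx3 siRNA library and 0 without the others. Besides Acta1, Tagln, which encodes the actin-binding protein transgelin, went from 284 and 280 RPKM to 447 and 494 (0.73, adjusted p = 0.00106). Acta2, smooth muscle actin, went from 18.7 and 18.5 RPKM to 24.1 and 22.9 (0.32, adjusted p = 0.0135, up to 0.0985 without single libraries), with 43.6 and 43.1 after Cbx3 siRNA. Gata4, a factor of endoderm and heart, was at 1.31 and 0.901 RPKM in the controls and 1.05 and 0.75 after Med26 siRNA (-0.15, adjusted p = 0.518). The part of any other cell type in the rises was not tested.

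Calcium- and membrane-binding genes of the S100, annexin and galectin families rose in 6 of 16 cases and fell in none, and the count of rises was 6 without any single library. Anxa1 was at 7.64 and 7.63 RPKM in the controls, 20.1 and 22.1 with Cbx3 siRNA, and 18.7 and 19.9 with Med26 siRNA (1.23, adjusted p = 0.000238). Lgals3, galectin 3, was at 7.02 and 6.59, 16.1 and 15.1, and 15.3 and 15.6 RPKM in the same order (1.08, adjusted p = 0.000359). The knockdowns did not differ for Anxa1 (-0.12, adjusted p = 0.291) or Lgals3 (-0.01, adjusted p = 0.917) beyond the spread. Anxa2, in contrast, was higher after Cbx3 siRNA, at 50 and 54.8 RPKM, than after Med26 siRNA, at 33.8 and 35.3, with 22 and 20.9 in the controls. After Cbx3 siRNA 11 of the 16 rose and none fell, with a median of 0.628, beside 0.291 after Med26 siRNA. In the direct contrast 5 were lower with Med26 siRNA and none higher, against 11.7% and 8.66% of all genes.

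Immediate early genes, which growth signals induce within minutes, rose after Med26 siRNA in 8 of 22 cases and fell in none. After Cbx3 siRNA 10 rose and 1 fell. The median was 0.313 after Cbx3 siRNA and 0.308 after Med26 siRNA. Ier3 was at 4.66 and 4.69 RPKM in the controls, 10.8 and 10.4 with Cbx3 siRNA, and 12.7 in both Med26 siRNA libraries (1.27, SE 0.07, adjusted p = 0.000158). Junb, an AP-1 subunit gene, went from 16.3 and 16.1 RPKM to 25.8 and 26.5 (0.65, adjusted p = 0.00167), with 27.9 and 30.8 after Cbx3 siRNA. Without control replicate 1, control replicate 2, Med26 siRNA replicate 1 or Med26 siRNA replicate 2 the rises numbered 4, 4, 3 and 4, and Ier3 and Junb passed in each.

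Extracellular matrix genes rose after Med26 siRNA in 9 of 28 cases and fell in 2. After Cbx3 siRNA 12 rose and none fell. The median was 0.223 after Cbx3 siRNA and 0.206 after Med26 siRNA. Thbs1, thrombospondin 1, went from 37.5 and 33.9 RPKM to 70.5 and 67.5 (0.93, adjusted p = 0.00055), with 63.7 and 60.9 after Cbx3 siRNA. Spp1, osteopontin, was at 35.9 and 39.2 RPKM in the controls, 72.1 and 77.7 with Cbx3 siRNA, and 25.1 and 27.7 with Med26 siRNA (-0.49, adjusted p = 0.00747), so its knockdown levels lay on opposite sides of the controls. The matrix rises numbered 5, 4, 3 and 6 when control replicate 1, control replicate 2, Med26 siRNA replicate 1 or Med26 siRNA replicate 2 was left out.

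Cholesterol synthesis and uptake genes, which the factor SREBP2 drives when sterols are low, rose in 10 of 34 cases and fell in none, with a median of 0.189. Insig1, which holds SREBP in the endoplasmic reticulum and is itself a target, was at 11.6 and 11.8 RPKM in the controls, 18.8 and 19.8 with Cbx3 siRNA, and 25.6 and 24.9 with Med26 siRNA (1.04, adjusted p = 0.000249). Msmo1, a sterol oxidase, went from 32.3 and 37 RPKM to 57.6 and 59.6 (0.74, adjusted p = 0.00167). After Cbx3 siRNA 12 rose and 1 fell, with a median of 0.188. The Med26 count was 7 without control replicate 1, control replicate 2 or Med26 siRNA replicate 2 and 4 without Med26 siRNA replicate 1, and Insig1 and Msmo1 passed in each.

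Glycolysis and hypoxia genes differed between the 2 knockdowns. After Med26 siRNA 6 of 33 rose and 1 fell, with a median of 0.125, and after Cbx3 siRNA 1 rose and 9 fell, with a median of -0.137. In the direct contrast 15 were higher with Med26 siRNA and 2 lower, against 8.66% and 11.7% of all genes. Slc2a3, the glucose transporter Glut3, was at 218 and 211 RPKM in the controls, 216 and 213 with Cbx3 siRNA, and 384 and 370 with Med26 siRNA (0.81, SE 0.06, adjusted p = 0.000518). P4ha1, a collagen prolyl hydroxylase, went from 6.11 and 6.38 RPKM to 9.91 and 10.3 (0.61, adjusted p = 0.00251). Egln1, the oxygen sensor that marks the hypoxia factor HIF for destruction, fell from 11.2 and 13.2 RPKM to 6.33 and 7.85 (-0.71, adjusted p = 0.00729). The rises numbered 5, 4, 3 and 3 without control replicate 1, control replicate 2, Med26 siRNA replicate 1 and Med26 siRNA replicate 2.

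The genes that set Med26 siRNA apart from both other groups were found by asking for 2 tests at once. Of all tested genes, 333 (2.91%) were higher and 481 (4.21%) lower after Med26 siRNA than in both the controls and the Cbx3 siRNA libraries. Both tests share the Med26 siRNA libraries, so they are not independent. Ranked by the smaller of their 2 differences, the leading lower genes were H3f4, H2ac1, Cdca7l, Mir6340, Fgf8, Lhpp, Lefty1, Rce1, Wnt8a and Snord52. The leading higher genes were Dcaf12l1, Mbnl1, Acta1, Lamp2, Sumf1, Nr0b1, Zdbf2, Mymx, Slc2a3 and Syap1. Lamp2, a lysosomal membrane protein, was at 5.91 and 5.92 RPKM in the controls, 5.36 and 4.62 with Cbx3 siRNA, and 12.5 and 11.9 with Med26 siRNA (0.94, adjusted p = 0.00102). Sumf1, which activates sulfatases, went from 3.07 and 3.49 RPKM to 6.85 and 7.27 (0.92, adjusted p = 0.00111), with 2.84 and 2.79 after Cbx3 siRNA. Zdbf2, an imprinted gene, went from 7.72 and 7.1 RPKM to 15.6 and 12.5 (0.84, adjusted p = 0.00481).

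**Figure D5:**
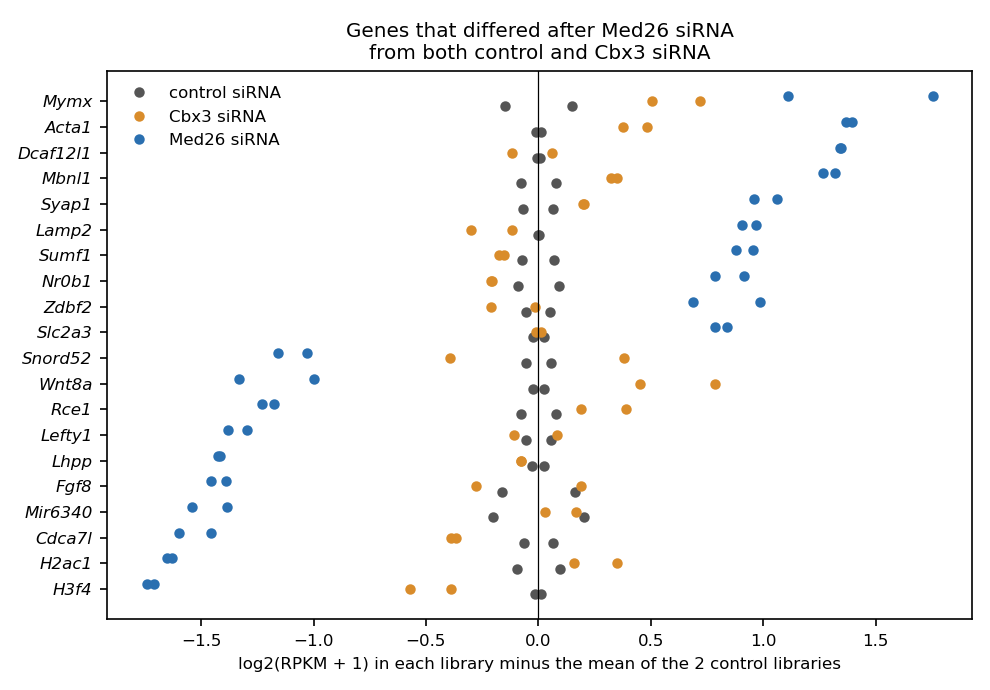
Log2(RPKM + 1) in each NPC library minus the mean of the 2 control libraries (horizontal axis) for the 20 genes with the largest differences of Med26 siRNA from both other groups, 1 point per library. The blue Med26 siRNA points lie apart from the orange Cbx3 siRNA and grey control points in every row, from H3f4 (-1.73) to Mymx (1.43).

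Of the 171 passing genes besides Med26 that the naming rule selects, 84 also passed in each of the 6 fits that left out 1 library. All 171 kept their direction there and in each other alternative fit that gave them a value; 27 of the 180 named genes besides Med26 have none at a minimum of 5 RPKM, and 1, H3f4, has none with the length and GC trend removed.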

How the data were processed

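RNA from NPCs was sequenced after control, Cbx3 or Med26 siRNA, from libraries that, per the labels' protocols, were prepared with a TruSeq kit for RNA. The values are RPKM per RefSeq accession, computed by the authors and deposited as 1 table of 35860 rows. TopHat2 2.08 and the build mm9 come from the submitters' processing notes. The counting tool, strand setting and handling of multiply matching reads are not given in the sources used, so isoforms, copies and overlapping genes can share reads.

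For gene names, 99.07% of rows matched the GRCm38.p6 gene table of RefSeq, and the row with the highest mean RPKM stood for a gene. log2(RPKM + 1) of the 6 NPC libraries entered a limma 3.58.1 fit (R 4.3.3) with a variance trend on intensity, two-sided tests and Benjamini-Hochberg adjustment over the 11425 tested genes at 0.05. Fold changes on this scale understate the change of low genes. Low RPKM values fell on steps that gave each library's depth, but at most 69.74% lay within 0.1 reads of a whole number, too few for a count test. The fit was tested on simulated data with 200 changed genes.

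Named genes were Med26, Cbx3, Mediator subunits that passed, the 15 largest rises and falls at a mean of at least 2 RPKM with no overlap between the groups, up to 4 passing members of each of 54 lists, all passing super elongation complex genes, a fixed set of markers, and the 10 leading genes each way against both other groups. A few genes that this rule names are not reported here. Other list members given by value were chosen after their values were seen. The members and lists were chosen with earlier results of these data known. Lists are described by counts and medians, with no test of their own. Alternatives changed the pseudocount, filter, libraries, scaling, row choice and variance trend, added a replicate block or left out a library. The removal of a trend on transcript length and GC content (GENCODE M21 transcripts) was added after seeing the data. Promoter windows are RefSeq sequence of GRCm38.p6.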

Additional observations from a re-analysis of the deposited data

How the results depend on the processing

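For Med26 siRNA against control, 1802 genes passed. Over the alternatives that left the count within 1.5 times of this, it was 1502 to 2059. With no filter beyond a value above 0 in 2 NPC libraries it was 1045, with all 10 libraries in the fit 15 (1398 at an unadjusted p under 0.05), and without single libraries 462 to 1628. For Med26 against Cbx3 siRNA, 2329 passed, with 128 in the fit of all 10 libraries and 852 to 2036 without single libraries. The median residual SD was 0.083 for the NPC libraries and 0.152 for all 10. Fits without a library leave 1 arm with a single sample, which is assumed to vary like the others.

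The labels number the replicates 1 and 2 in every group, and nothing says that a number marks a shared culture. Same-numbered NPC samples deviated together, with correlations of replicate differences of 0.482, 0.442 and 0.449, but 2 numbers per group are too few to show a pairing. With a replicate block 4086 genes passed against control and 4541 against Cbx3 siRNA, and with the block and the length and GC trend removed together 3926 and 4553. Under the block the falls numbered 56 for ribosomal protein genes, 43 for histone genes, 24 for oxidative phosphorylation genes and 22 for the stress response list, where 4 rose.

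Med26 stayed low throughout, at -0.94 to -1.20. Among genes that did not pass, Pou5f1 changed sign, to 0.077 under quantile normalization, -0.072 to 0.012 without single libraries, and 0.039 with the length and GC trend removed, with or without the block, and Tbp to -0.06 in the latter 2. In the fit of all 10 libraries 161 of the 171 calls that the naming rule selects besides Med26 were lost. Fewer samples and a larger spread are built into these alternatives. The cause was otherwise not tested. The 2 replicates per arm and an unstated counting rule limit every value, and low genes rest on few reads.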

Other observations

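Small non-coding RNA genes were seen low in the Med26 siRNA libraries. These classes were chosen after their values were seen, so they are described and not tested as groups. After Med26 siRNA 11 of 71 tested small nucleolar RNA genes, which guide modification of ribosomal RNA, fell and 1 rose. Over all tested genes 7.81% fell and 7.96% rose. Of the 71, 57 were below 0, and the median was -0.181, beside 0.057 after Cbx3 siRNA. Snora74a was at 440 and 434 RPKM in the controls, 445 and 442 with Cbx3 siRNA, and 229 and 287 with Med26 siRNA (log2 change -0.77, adjusted p = 0.00345 by limma). Snora26 was at 70.7 and 62.6 RPKM in the controls, 88.1 and 84.1 with Cbx3 siRNA, and 27.7 and 46.7 with Med26 siRNA (-0.87, adjusted p = 0.0271). Most of these genes lie in introns of host genes and are among the shortest transcripts, the class whose median was -0.122 over all genes.

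The RNA polymerase III transcripts Rmrp, the RNA of RNase MRP, and Rpph1, the RNA of RNase P, also fell. Rmrp, the most abundant, was at 26926 and 26717 RPKM in the controls, 24382 and 26238 with Cbx3 siRNA, and 19346 and 20633 with Med26 siRNA (-0.42, adjusted p = 0.0204). Rpph1 was at 15421 and 14700 RPKM in the controls and 11515 and 12085 after Med26 siRNA (-0.35, adjusted p = 0.041). Terc, the telomerase RNA, which polymerase II makes, was at 106 and 107 RPKM in the controls and 107 and 93.1 after Med26 siRNA (-0.09, adjusted p = 0.454). Malat1, a long nuclear RNA, rose from 89.7 and 86.9 RPKM to 141 and 136 (0.64, adjusted p = 0.00111), with 118 and 110 after Cbx3 siRNA. These RNAs were read from libraries whose RNA selection step the labels do not state. Whether the calls of Snora74a, Snora26, Rmrp, Rpph1 and Malat1 hold without single libraries was not tested.

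Of 20 tested imprinted genes, 5 rose and 2 fell. The rises numbered 2 without Med26 siRNA replicate 1, 3 without control replicate 1 or 2 and 4 without Med26 siRNA replicate 2. Impact, a regulator of the kinase Gcn2, went from 54.1 and 57 RPKM to 25.9 and 26.3 (-1.06, adjusted p = 0.000172), with 43.9 and 44.7 after Cbx3 siRNA. Snrpn fell from 51.8 and 55.1 RPKM to 29.5 and 32.9 (-0.76, adjusted p = 0.00207). Peg10 rose from 15.1 and 11.4 RPKM to 28.4 and 19.3 (0.79, adjusted p = 0.037, up to 0.183 without single libraries), with a wide spread between replicates. Igf2 and H19, which share an imprinted domain, rose from 2.86 and 2.35 RPKM to 6.6 and 5.66 and from 6.34 and 5.13 to 11.1 and 12.1.

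Interferon and MHC class I genes gave 3 rises and 3 falls among 23 (1 and 0 without Med26 siRNA replicate 1, 1 and 1 without control replicate 1 or 2), but in the direct contrast 12 were lower with Med26 than with Cbx3 siRNA and 1 was higher. Over all tested genes 11.7% were lower and 8.66% higher in that contrast. Against control, 8 of the 23 rose and 2 fell after Cbx3 siRNA. The median was 0.207 after Cbx3 siRNA and -0.052 after Med26 siRNA. Ifi35 was at 1.16 and 1.15 RPKM in the controls, 1.8 and 1.63 with Cbx3 siRNA, and 0.403 and 0.427 with Med26 siRNA (-0.61, adjusted p = 0.00686 by limma). Genes of oxidative phosphorylation gave 2 rises and 3 falls among 89, beside 15.8% called over all genes, and the falls numbered 0 or 1 without control replicate 1 or 2 or Med26 siRNA replicate 1 or 2.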
